A study of Mus musculus with 12 samples.

Results

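Genes of the PPAR and RXR nuclear receptor system, 9 in all, were examined in mouse epidermis with and without epidermal Pparg. They were chosen by name, and all 9 were among the 14533 genes for which read counts were deposited. The members are the PPAR genes Ppara, Ppard and Pparg, the retinoid X receptor genes Rxra and Rxrb, the liver X receptor genes Nr1h2 (LXRβ) and Nr1h3 (LXRα), the corepressor gene Ncor1, and Med1. Med1 encodes a subunit of the Mediator complex and is a coactivator, so that Ncor1 was the only corepressor of the 9.

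PPARs are transcription factors that are switched on by fatty acids and their derivatives. They bind DNA as heterodimers with an RXR, and their target genes serve the uptake, storage and oxidation of fatty acids. The LXRs sense oxysterols, bind DNA with the same RXR partners and drive cholesterol export and lipid synthesis. Without ligand, such receptors recruit NCoR complexes that carry histone deacetylases, and with ligand they recruit coactivators such as MED1, which connects them to RNA polymerase. In skin, PPARδ is the most abundant PPAR of keratinocytes, while PPARγ is best known from adipocytes, sebocytes and macrophages.

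The groups were 6 WT and 6 Pparg-/-epi C57BL/6 mice, untreated, of both sexes and 8 to 13 weeks of age by the sample labels, with 1 RNA-seq library per mouse, and Pparg-/-epi mice are also called mutants here. All 12 mice carried floxed Pparg, Pparg (flox/flox). WT mice lacked Cre (Cre-/-) and Pparg-/-epi mice carried Cre (Cre+/-) driven by the cytokeratin 14 promoter, which is active in basal keratinocytes, so cells of other lineages keep an intact Pparg. The dorsal epidermis was scraped from frozen non-lesional skin down to the first vessels of the dermis, so the RNA includes some dermis. Total counts per library ran from 10120840 to 18851255. In bulk RNA of this kind, fewer cells of a type and less RNA per cell cannot be told apart.

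Keratinocyte markers were led by Krt10, Krt5, Krt1 and Dsp, and the sum of the 9 keratinocyte markers was between 20919 and 52187 CPM (counts per library total after TMM scaling). WT replicate 2 stood apart, with the lowest keratinocyte sum and the highest macrophage sum (638 CPM). WT replicate 5 had 10222 CPM of skeletal muscle markers against at most 397 CPM in any other mouse, and WT replicate 1 had 34762 CPM of fibroblast markers against at most 11434 CPM. Of the 6 WT mice, 4 had mouse names beginning with 29-226, which no Pparg-/-epi mouse shared. Whatever this prefix marks and the genotype therefore cannot be fully told apart. For short, the prefix of the mouse name is called breeding number here. The labels do not give it that meaning, and what it marks was not tested. The only breeding number with both genotypes was 29-222, of WT replicate 2 and Pparg-/-epi replicate 10, which differ in sex. Values without these mice are given where they change a call or a direction of a member.

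The genotypes were compared in edgeR by its quasi-likelihood test, adjusted by Benjamini-Hochberg over the 14533 genes. Adjusted p-values come from it unless another test is named, and log2 fold changes are Pparg-/-epi over WT. Altered genes are those with an adjusted p under 0.05 whose log2 fold change was 0.6 or larger in size. CPM values are mean ± SD with n = 6 mice per group.

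Among the 9 genes, Ppara fell and Ppard rose in Pparg-/-epi mice. No other member passed an adjusted p of 0.05. Of the 9 members 1 was altered, Ppara, beside 10.3% of all genes tested. At an adjusted p under 0.05 alone there were 2, Ppara and Ppard, beside 15.4% of all genes, and the same 2 were the only members whose groups did not overlap in CPM, beside 7.90% of all genes. The median log2 fold change of the 9 members was -0.10, and that of all genes was -0.01. With 9 genes, these counts are near what the share over all genes gives, and the result lies in the 2 single genes.

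The starts of Ppara and Ppard are shown because these were the members that moved. Each sequence is the RefSeq promoter window in build GRCm38.p6 (mm10), plus strand, 5′ to 3′, from 250 bases before to 50 bases after the annotated start, and capitals mark GGGCGG, the core of the GC box bound by SP factors, or AGGTCA, the half-site that PPAR, RXR and LXR dimers recognise as a repeat.
Ppara, chr15:85735526-85735825: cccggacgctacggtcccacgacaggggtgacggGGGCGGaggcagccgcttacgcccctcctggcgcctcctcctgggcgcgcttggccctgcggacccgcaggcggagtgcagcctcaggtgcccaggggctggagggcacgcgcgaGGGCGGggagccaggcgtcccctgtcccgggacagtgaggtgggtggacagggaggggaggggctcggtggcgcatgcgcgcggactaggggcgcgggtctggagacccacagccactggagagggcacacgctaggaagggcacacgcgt
Ppard, chr17:28232504-28232803: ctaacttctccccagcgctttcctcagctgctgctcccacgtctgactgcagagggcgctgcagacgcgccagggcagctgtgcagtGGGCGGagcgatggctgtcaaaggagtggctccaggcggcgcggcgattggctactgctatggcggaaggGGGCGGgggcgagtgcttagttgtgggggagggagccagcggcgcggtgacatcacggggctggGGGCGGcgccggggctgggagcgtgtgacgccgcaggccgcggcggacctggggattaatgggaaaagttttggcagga

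Both windows are rich in G and C, 74.7% for Ppara and 68.3% for Ppard, while the median over all 32851 RefSeq promoter windows was 52.7%. Both strands were searched. GGGCGG occurred 2 times in the Ppara window and 3 times in the Ppard window, and 35.7% of all windows held at least 1 match. AGGTCA occurred in neither, and 16.3% of all windows held it. The 9 members had 15 annotated windows, and AGGTCA lay in 3 of them, at 2 of the 3 starts of Pparg (1 match each) and at 1 of the 2 starts of Rxra (2 matches). These matches describe the letters of the windows and say nothing of binding.

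Ppara, the PPAR known for fatty acid oxidation, was read from chromosome 15, bases 85735564 to 85806851 on the plus strand of mm10. Most of the Ppara promoter window shown above, 85735526 to 85735825, lies within these bases, since the start it is set on is further downstream. The lowest, median and highest CPM of Ppara were 28.3, 34.6 and 41.6 in WT mice, and 10.4, 14.3 and 16.2 in Pparg-/-epi mice. The highest Pparg-/-epi mouse was below the lowest WT mouse. The means were 34.2 ± 4.65 CPM in WT and 13.8 ± 2.38 CPM in the mutants, from 266 to 647 and from 157 to 277 counts per library. The log2 fold change was -1.31 (standard error 0.14, 95% interval -1.60 to -1.02, adjusted p = 1.67e-04), a level 2.48-fold lower. Ppara ranked 24 of the 14533 genes by p. With each mouse left out in turn its log2 fold change stayed between -1.36 and -1.25, and in female mice alone it was -1.49 (adjusted p = 0.0116). With breeding number as a block, an alternative chosen after seeing the data, the genotype difference rests on WT replicate 2 and Pparg-/-epi replicate 10, and Ppara was -1.08 without passing (adjusted p = 0.0848).

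Ppard, the PPAR of keratinocyte growth and barrier repair, lies on chromosome 17, bases 28232754 to 28301469 of the plus strand. In WT mice it was at 44.3 CPM at the lowest, 53.7 at the median and 62.8 at the highest, and in Pparg-/-epi mice at 72.7, 76.7 and 104 CPM. Here the lowest Pparg-/-epi mouse was above the highest WT mouse, and Pparg-/-epi replicate 7 was well above the other 5. The means were 53.7 ± 6.55 CPM and 80.9 ± 11.7 CPM. The log2 fold change was 0.59 (standard error 0.11, 95% interval 0.36 to 0.83, adjusted p = 0.00370), or 1.51-fold, which is just under the size at which a gene was called altered. Leaving out Pparg-/-epi replicate 7 gave 0.48, still at an adjusted p under 0.05. The call was lost in female mice alone (log2 fold change 0.62, adjusted p = 0.0515), when only the 2 WT mice outside 29-226 were used (0.43, adjusted p = 0.166), and with breeding number as a block (0.31, adjusted p = 0.344).

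Pparg itself, on chromosome 6 from 115360951 to 115490401 of the plus strand, was counted over the whole gene. Cre removes exons 1 and 2 in keratinocytes and leaves a shortened transcript, so these counts do not separate the deleted from the intact allele. The 6 WT mice had 3.77, 14.3, 0.533, 1.01, 4.58 and 0.818 CPM, from 5 to 269 counts. The 6 Pparg-/-epi mice had 5.20, 6.49, 5.39, 1.33, 2.89 and 2.15 CPM, from 16 to 107 counts. The WT values spanned 26.8-fold and enclosed all those of the Pparg-/-epi mice. The means were 4.16 ± 5.23 and 3.91 ± 2.06 CPM, a log2 fold change of -0.10 with a 95% interval from -1.62 to 1.43 (adjusted p = 0.949). Its direction and size depended on the mice. Omitting WT replicate 2 turned it to 0.86 (adjusted p = 0.308), and with age as a covariate it was 0.35, where ages are those of the sample labels, which differ from the study's sample sheet for some mice. Against the 2 WT mice outside 29-226 it was -1.18 (adjusted p = 0.315), and with breeding number as a block -3.41 (adjusted p = 0.153). A fall or a rise of Pparg reads of over 2-fold is within that interval.

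**Figure D1:**
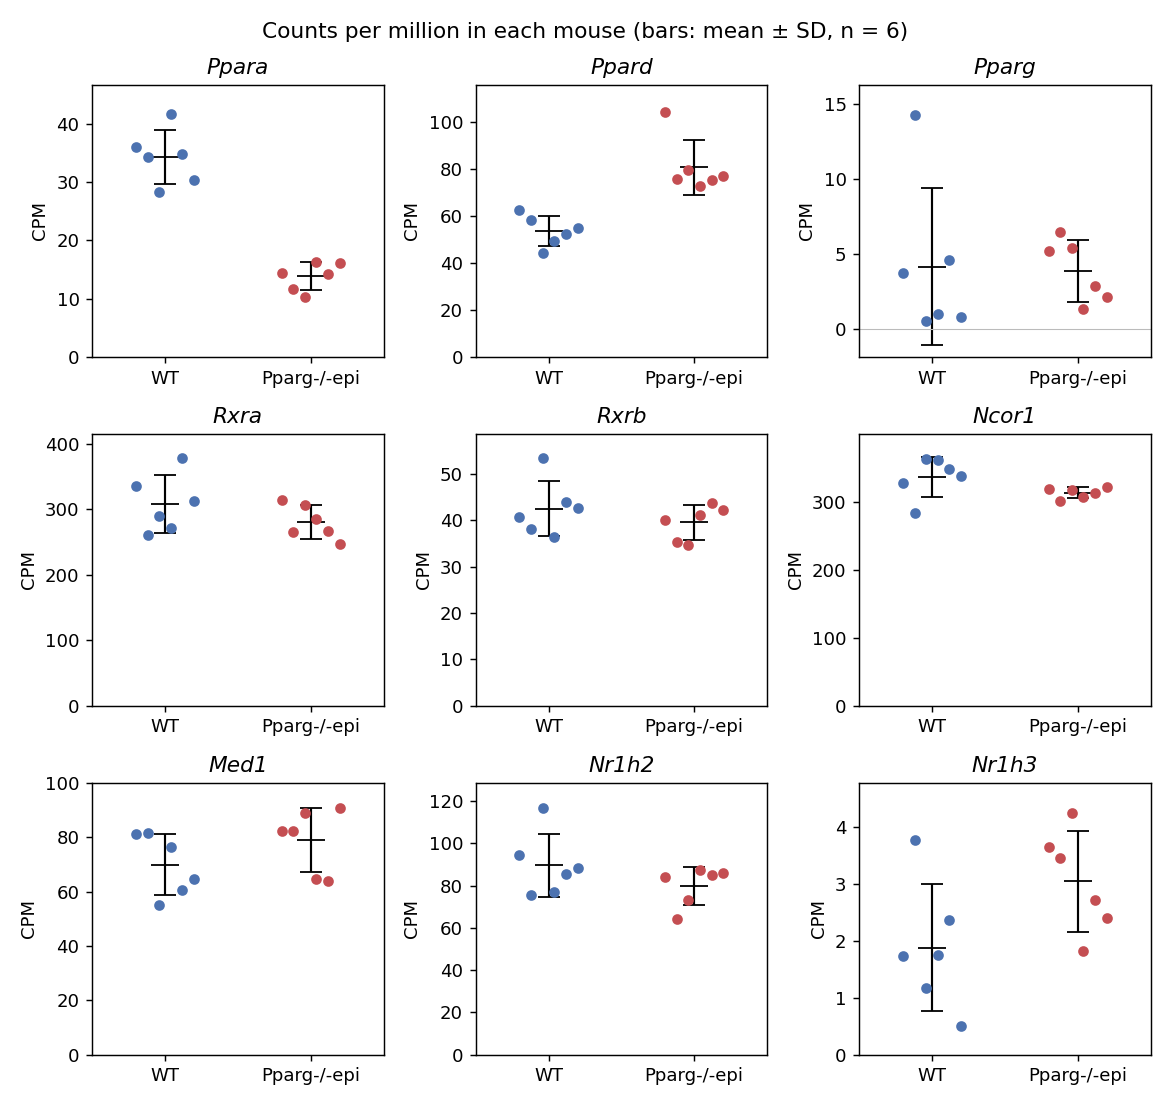
CPM of each of the 9 genes (vertical axis, linear) in the 6 WT mice (blue) and the 6 Pparg-/-epi mice (red), 1 point per mouse, with the mean ± SD in black. The groups separate for Ppara (at least 28.3 against at most 16.2 CPM) and Ppard (at most 62.8 against at least 72.7 CPM) and overlap for the other 7 genes.

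The RXRs are the obligate partners of the PPARs and LXRs. Rxra, the main RXR of skin, had 260, 300.4 and 378 CPM at the lowest, median and highest in WT mice and 247, 276 and 313 CPM in Pparg-/-epi mice. The difference was -0.13 on the log2 scale (95% interval -0.36 to 0.10, adjusted p = 0.448). Rxrb, a broadly expressed RXR, had 36.3, 41.7 and 53.4 CPM in WT and 34.6, 40.7 and 43.7 CPM in the mutants, which differed by -0.10 on the log2 scale (-0.33 to 0.12, adjusted p = 0.553). For both RXR genes the groups overlapped broadly.

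The LXR genes differed in how much of them was read. Nr1h2, the LXR found in most tissues, had 75.7, 87.1 and 117 CPM in WT and 64.4, 84.5 and 87.2 CPM in the mutants, and its log2 fold change was -0.16 (95% interval -0.41 to 0.09, adjusted p = 0.380). Nr1h3, the LXR of macrophages, liver and fat, had only 8 to 71 counts per library. Its values were 0.504, 1.74 and 3.77 CPM for WT and 1.83, 3.08 and 4.24 CPM for Pparg-/-epi mice. All 6 Pparg-/-epi mice were above the WT median, but WT replicate 2, at 3.77 CPM, lay among them, and WT replicate 5, at 2.37 CPM, was above Pparg-/-epi replicate 10, at 1.83 CPM. The log2 fold change of 0.69 had a 95% interval from -0.15 to 1.53 (adjusted p = 0.266), and without WT replicate 2 it was 1.01 (adjusted p = 0.0599).

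Ncor1, the scaffold of the NCoR corepressor complex, was the steadiest member. It had 283, 342 and 362 CPM at the lowest, median and highest in WT mice and 301, 315 and 321 CPM in Pparg-/-epi mice. The coefficient of variation was 8.76% for WT and 2.48% for Pparg-/-epi mice, and all 6 Pparg-/-epi mice lay below the WT median. The log2 fold change of -0.10 was nevertheless within the spread between mice (95% interval -0.27 to 0.06, adjusted p = 0.406). Its exons share 16 bases with those of Ttc19 on the opposite strand, 0.144% of its length, and no other member shares exon sequence with another gene in the table.

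Med1, the Mediator subunit that contacts ligand-bound receptors, had 55.0, 70.6 and 81.8 CPM in WT mice and 63.8, 82.4 and 91.0 CPM in the mutants. Of the Pparg-/-epi mice 4 were at 82.3 CPM or more, just above the highest WT mouse at 81.8 CPM. The other 2 were at 64.8 CPM or less, within the WT range. The log2 fold change was 0.17 (95% interval -0.10 to 0.45, adjusted p = 0.408).

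**Figure D2:**
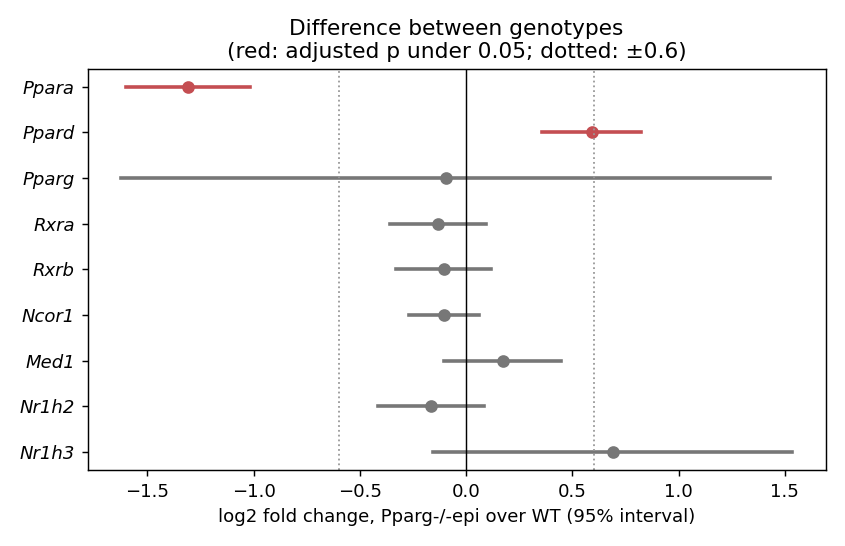
Log2 fold change of each gene, Pparg-/-epi over WT (horizontal axis), with its 95% interval from the quasi-likelihood fit of 6 against 6 mice; red marks an adjusted p under 0.05 and dotted lines ±0.6. The intervals of Ppara (-1.60 to -1.02) and Ppard (0.36 to 0.83) exclude 0, and those of Pparg and Nr1h3, the genes with the fewest reads, are the widest.

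Levels of different genes can be compared only per length, as RPKM, which divides the scaled reads by the kilobases of gene length. In WT mice the order was Rxra at 56.3 ± 8.02 RPKM, Nr1h2 at 44.3 ± 7.42, Ncor1 at 30.2 ± 2.64, Ppard at 16.7 ± 2.03, Rxrb at 15.4 ± 2.17, Med1 at 9.22 ± 1.495, Ppara at 4.55 ± 0.618, Pparg at 1.79 ± 2.25 and Nr1h3 at 0.924 ± 0.549 RPKM. The order by mean was the same in Pparg-/-epi mice, where the highest, Rxra, was at 51.4 ± 4.70 RPKM and the lowest, Nr1h3, at 1.497 ± 0.436 RPKM. Neighbours in this order were compared within mice over the 12 mice by an exact sign-flip permutation test, two-sided, with adjustment over the 8 neighbouring pairs. Pparg and Nr1h3 did not differ beyond their spread (adjusted p = 0.576, 7 of 12 mice in order).

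Ppara lay above Pparg over all mice (exact permutation test, adjusted p = 0.0312), but in only 8 of 12 mice, 5 of 6 WT and 3 of 6 Pparg-/-epi, and the adjusted p was up to 0.0625 with 1 mouse left out. The other neighbours differed at an adjusted p of 0.00846 or less, in the stated order in at least 11 of 12 mice. Ppard and Rxrb were close in WT mice, with a mean log2 difference of 0.12 per length, and further apart in Pparg-/-epi mice, at 0.81. Ncor1 and Ppard went the other way, from 0.86 to 0.17.

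The balance among the PPAR genes differed between the genotypes. Per length, Ppard reads were 3.68 times those of Ppara in WT mice (geometric mean, 2.78 to 4.25 over the 6 mice) and 13.7 times in Pparg-/-epi mice (10.5 to 18.0). The groups did not overlap, and the log2 ratio differed by 1.90. By an exact permutation test over mice, two-sided, p was 0.00216, the smallest that 6 against 6 allow (adjusted over 4 ratios p = 0.00866). Because Ppara and Ppard each separated the groups, in opposite directions, this outcome follows from those 2 results and is no further evidence. Of the RPKM of all 3 PPAR genes, Ppard took 73.1% ± 5.93 in WT and 87.7% ± 1.74 in Pparg-/-epi mice, Ppara 20.1% ± 3.40 and 6.52% ± 1.53, and Pparg 6.86% ± 7.66 and 5.77% ± 2.92. WT replicate 2 had the largest share of Pparg, 21.3%.

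In the remaining ratios the groups overlapped. Rxrb reads were 0.274 times those of Rxra in WT and 0.278 times in Pparg-/-epi mice (difference of log2 ratios 0.03, exact permutation p = 0.844). Pparg to Ppard was 0.0584 and 0.0592 (difference 0.02, exact permutation p = 0.978), over ranges of 0.0183 to 0.339 for WT and 0.0261 to 0.119 for Pparg-/-epi mice. Nr1h2 to Nr1h3 was 54.8 in WT mice and 26.9 in the mutants, a log2 difference of -1.02 that did not pass adjustment (exact permutation p = 0.0584, adjusted p = 0.117).

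**Figure D3:**
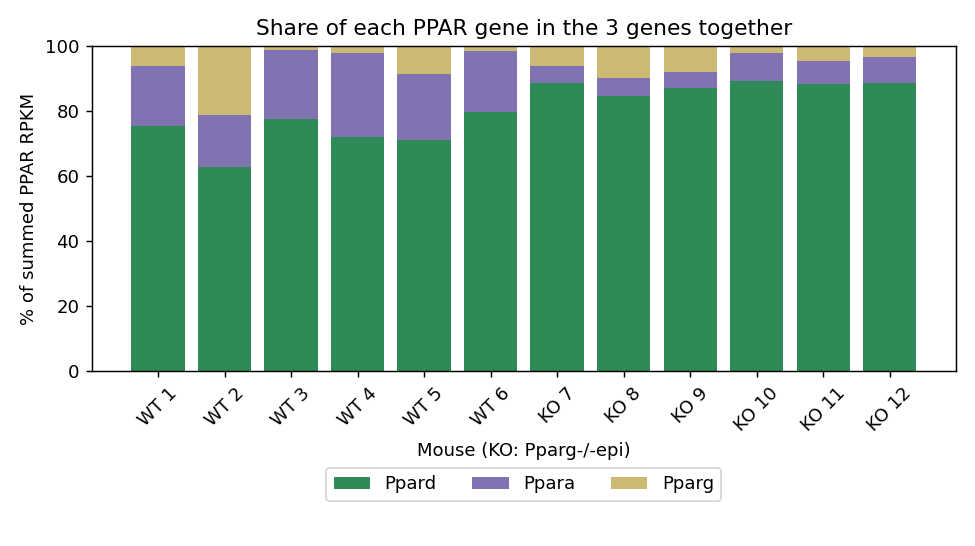
Share of Ppard, Ppara and Pparg in the summed RPKM of the 3 PPAR genes (vertical axis, percent) in each of the 12 mice, with WT replicates 1 to 6 on the left and Pparg-/-epi (KO) replicates 7 to 12 on the right. Ppara takes 15.8% to 25.9% of the sum in WT mice and 4.83% to 8.51% in the mutants.

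Pparg reads varied between mice together with markers of other cells. Over the 12 mice, log2 CPM of Pparg and the log2 sum of 14 adipocyte markers, led by Car3, Fabp4, Lipe and Cfd, had a Pearson r of 0.79 and a Spearman rho of 0.81 (permutation p = 0.00213 and 0.00226, adjusted over 4 marker lists p = 0.00426 and 0.00301). Without the 2 mice farthest from the median r was 0.83. Within WT mice r was 0.82 and within Pparg-/-epi mice 0.76, with exact permutation p of 0.0333 and 0.0694 for 6 mice each. The adipocyte sum ran from 50.4 to 713 CPM for WT and from 67.1 to 313 CPM for Pparg-/-epi mice and did not differ between them beyond the spread (exact permutation p = 0.905). Car3, which skeletal muscle also expresses, made up 549 CPM (77.0%) of the 713 CPM of WT replicate 5, the mouse with most muscle markers. Leaving out WT replicate 5 moved the log2 difference of the adipocyte sum between genotypes from 0.11 to 0.60 and r to 0.89, and with Car3 left out of the sum r was 0.87, both r values computed after seeing the data.

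The 7 macrophage markers, led by Lyz2, Csf1r, Mrc1 and Cd68, gave an r of 0.81 and a rho of 0.81 over all 12 mice (permutation p = 0.00134 and 0.00211, adjusted p = 0.00426 and 0.00301). Their r was 0.77 within WT, 0.96 within Pparg-/-epi mice, and 0.65 without the 2 farthest mice, where it no longer passed adjustment (permutation, adjusted p = 0.0862). For keratinocyte markers r was -0.51 and rho -0.24 (permutation p = 0.0858 and 0.456), and without the 2 farthest mice r was 0.36.

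The closest of all 10 marker lists was the endothelial one, compared after seeing the data. Its 7 markers, led by Pecam1, Cdh5, Kdr and Egfl7, had an r of 0.90 and a rho of 0.91 with Pparg (permutation p = 5e-05 and 1.1e-04, adjusted over 10 lists p = 5e-04 and 0.0011). Their r was 0.95 within WT, 0.985 within Pparg-/-epi mice and 0.82 without the 2 farthest mice. The sum ran from 6.80 to 117 CPM for WT and from 30.9 to 177 CPM for the mutants (exact permutation p = 0.0649, adjusted p = 0.325). Of the 10 lists, adipocyte, macrophage, sebocyte and endothelial passed adjustment for both r and rho, and T cell (r = 0.56, rho = 0.65) and fibroblast (r = 0.54, rho = 0.69) for rho (permutation, adjusted p = 0.042 and 0.0313). What part any of these cells have in the Pparg reads was not tested.

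The sebocyte marker sum could be set against Pparg only within genotypes, since its level separated nearly all mice by group. Within WT mice r was 0.96 (exact permutation p = 0.00972) and within Pparg-/-epi mice 0.89 (exact permutation p = 0.0292), with adjusted p of 0.0389 and 0.0583. Over all 12 mice r was 0.75, and it was 0.54 without the 2 farthest mice. This sum does not stand for 1 cell type here: it was 526 to 2716 CPM for WT and 2172 to 3783 CPM for Pparg-/-epi mice, and Krt79 made up 34.6% of it in WT but 90.2% in Pparg-/-epi mice. Krt79, a keratin of the hair follicle opening and the sebaceous duct, rose (log2 fold change 2.70, adjusted p = 0.0168). Genes of sebum synthesis fell, among them Fa2h (-7.85, adjusted p = 9.15e-04) and Scd3 (-7.68, adjusted p = 0.00160). Of the 11 measured sebocyte markers 6 fell, 1 rose and 4 were not altered, beside 10.3% of all genes altered. The study had reported lower Fa2h and Scd3 from these same data, so their fall is no separate evidence.

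**Figure D4:**
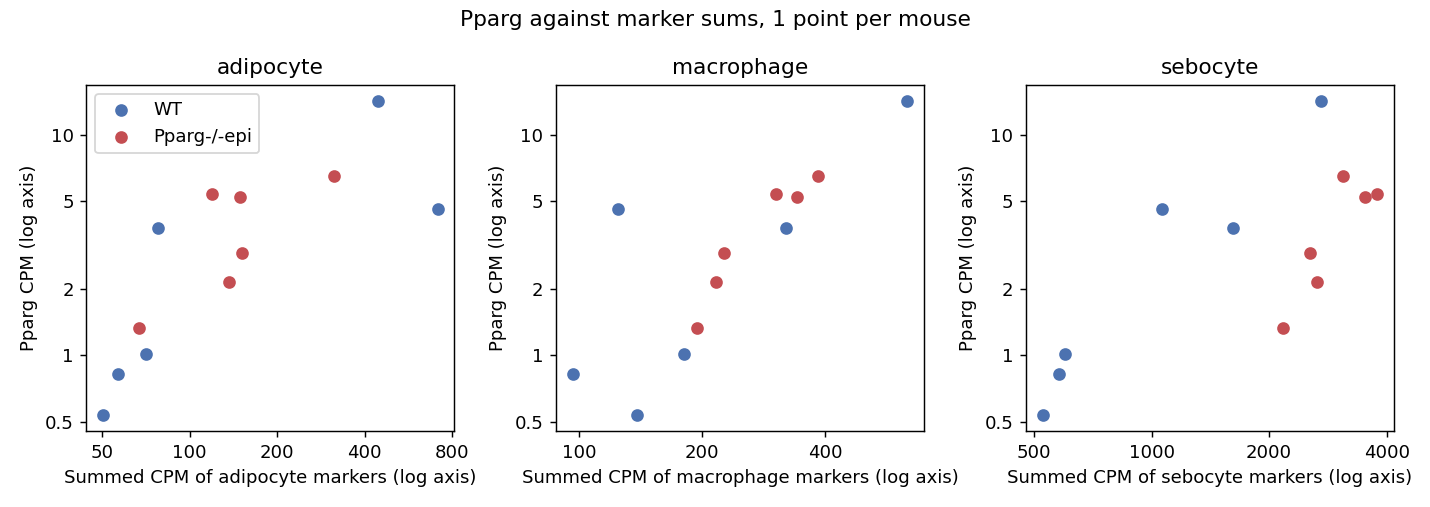
CPM of Pparg (vertical, log axis) against the summed CPM of adipocyte, macrophage and sebocyte markers (horizontal, log axes), 1 point per mouse, WT in blue and Pparg-/-epi in red. The mouse with most Pparg, WT replicate 2 at 14.3 CPM, also has the highest macrophage sum (638 CPM), and the sebocyte sums of 5 WT mice lie below those of all Pparg-/-epi mice.

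The genes whose log2 CPM followed Pparg most closely over the 12 mice, among 12128 genes with a mean of at least 50 counts, were Camk4 (r = 0.97), Cd36 (0.97), Ldhb (0.97), Sdpr (0.96) and Anxa6 (0.96). They were picked as the highest of all genes, and their r is a description. Without WT replicate 2 each r was still at least 0.95. Cd36, a fatty acid transporter and a PPAR target, ran from 1.60 to 70.2 CPM for WT and from 2.99 to 43.1 CPM for Pparg-/-epi mice, and none of the 5 passed the test between genotypes (adjusted p of 0.691 or more).

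Among the other members, Nr1h3 went with Pparg (r = 0.81, rho = 0.85, permutation p = 9.5e-04 and 8.8e-04, adjusted over 8 members p = 0.0076 and 0.00704). The relation was as close without the 2 farthest mice (r = 0.81), within WT (r = 0.82) and within Pparg-/-epi mice (r = 0.95). Ncor1 went against it (r = -0.72, rho = -0.69, permutation p = 0.00812 and 0.0152, adjusted p = 0.0325 and 0.0404), and its r was -0.43 without the 2 farthest mice, -0.83 within WT and -0.03 within Pparg-/-epi mice. For Nr1h2 r was -0.63 and rho -0.74 (permutation, adjusted p = 0.0700 and 0.0313), and r was -0.39 without the 2 farthest mice, -0.55 within WT and -0.76 within Pparg-/-epi mice. Many other genes went with or against Pparg as closely. Among the 12128 genes with a mean of at least 50 counts, r was at percentile 94.5 for Nr1h3, 10.5 for Ncor1 and 18.5 for Nr1h2. Ppara had an r of -0.25 and Ppard of 0.47 with Pparg, and neither passed (permutation, adjusted p = 0.496 and 0.166). The r of Ppara was 0.32 within WT and -0.81 within Pparg-/-epi mice, so its value over all mice mixes opposite directions. That of Ppard was 0.68 within WT and 0.47 within Pparg-/-epi mice.

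The pathway around the receptors was read from lists of genes, which are described by counts and medians. Of the 39 PPAR target genes measured, 5 were altered downward, 1 upward and 33 were not altered, with a median log2 fold change of -0.13. The genes that fell were Acaa1b, a peroxisomal thiolase (log2 fold change -4.57, adjusted p = 0.0180), Slc27a2, a fatty acid transporter and acyl-CoA synthetase (-4.36, adjusted p = 9.42e-04), Scd1, a fatty acid desaturase (-2.06, adjusted p = 9.85e-04), Mgll, monoacylglycerol lipase (-2.00, adjusted p = 0.00393), and Me1, malic enzyme (-0.90, adjusted p = 0.0102). Fabp5, the fatty acid binding protein of the epidermis, rose by 0.83 (adjusted p = 0.00262), from 258 ± 50.7 to 458 ± 66.0 CPM. The share altered, 6 of 39, stands beside 10.3% of all genes. Of these 6 genes, Slc27a2, Scd1 and Fabp5 were also altered in female mice alone, and Slc27a2, Scd1, Mgll and Acaa1b against the 2 WT mice outside 29-226. DESeq2 gave Acaa1b no adjusted p. Its fall was -2.68 with WT replicate 2, at 17.9 CPM, omitted. With breeding number as a block only Scd1 and Acaa1b of the 6 remained altered.

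Of 14 LXR target genes measured, 4 fell, with a median of -0.19, beside 10.3% of all genes altered. By the same rule 0 rose in the quasi-likelihood test, the likelihood ratio test and DESeq2, and the last 2 also gave 4 lower. At an unadjusted p under 0.05, 2 were higher and 5 lower. One of the 2 higher genes, Smpdl3a, a phosphodiesterase gene named after its values were seen, passed the adjusted p alone (0.48, adjusted p = 0.0481). At that limit 1 of the 14 was higher and 4 were lower, beside 15.4% of all genes. Beside Scd1, which both lists hold, the genes that fell were Arl4c, a small GTPase (log2 fold change -0.76, adjusted p = 4.63e-04), Fasn, fatty acid synthase (-0.62, adjusted p = 0.0176), and Srebf1, the transcription factor of lipid synthesis (-0.60, adjusted p = 0.00265). The 3 lipid synthesis genes, Scd1, Fasn and Srebf1, fell by different amounts, from 944 to 226, from 244 to 158 and from 97.7 to 64.2 CPM. Fasn and Srebf1 were not altered in female mice alone, and Arl4c and Srebf1 not against the 2 WT mice outside 29-226. With library totals in place of TMM factors Srebf1 was just under the size limit, and it was not altered with RIN as a covariate. Fasn was not altered with age as a covariate. Of the 12 fits that omitted a mouse, Srebf1 was altered in 8 and Fasn in 10, the exceptions for Fasn being those without WT replicate 1 or 2. Arl4c, Fasn and Srebf1 were not altered with breeding number as a block. Genes of sebum synthesis fell in the same mice, and what part the sebaceous cells have in the lower lipid genes was not tested.

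Of 9 other receptors that pair with RXR, Vdr, the vitamin D receptor, was altered, rising from 132 ± 51.9 to 266 ± 53.9 CPM (log2 fold change 1.01, adjusted p = 0.0120), with overlap of the groups, which is 1 of 9 beside 10.3% of all genes. The third RXR gene, Rxrg, was low, at 1.65 CPM for WT and 0.809 CPM for Pparg-/-epi mice (log2 fold change -1.01, adjusted p = 0.181). The 13 corepressor complex genes gave 0 altered by the quasi-likelihood test, beside 10.3% of all genes, with a median of -0.02. The likelihood ratio test and DESeq2 also gave 0. At an unadjusted p under 0.05, 2 were higher and 1 lower. At an adjusted p under 0.05 alone 2 of the 13 passed upward, a count near the share of all genes, 15.4%. These were the histone demethylase gene Kdm1a (0.25, adjusted p = 0.0458) and Sap30 of the SIN3 complex (0.47, adjusted p = 0.0497), both named after their values were seen.

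Of 34 coactivator and Mediator genes, 2 rose and 32 were not altered, with a median of 0.00, again beside 10.3% of all genes. Helz2, a helicase and PPAR coactivator, rose by 1.07 (adjusted p = 0.00848) and Ppargc1b, the coactivator PGC-1β, by 0.82 (adjusted p = 0.00456). Among 12 factors that act upstream of Pparg in fat cells, Gata2 rose (log2 fold change 1.48, adjusted p = 0.00608), while Gata3 (-0.98, adjusted p = 0.0238) and Srebf1 fell, 3 of 12 beside 10.3%. GATA2 and GATA3 restrain Pparg in preadipocytes, and Gata3 is also a main factor of epidermis, with 878 ± 295 CPM for WT and 446 ± 137 CPM for Pparg-/-epi mice. Vdr, Helz2, Ppargc1b, Gata2 and Gata3 were not altered in female mice alone, nor against the 2 WT mice outside 29-226 or with breeding number as a block, and Gata3 was altered in 7 of the 12 fits that omitted a mouse.

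**Figure D5:**
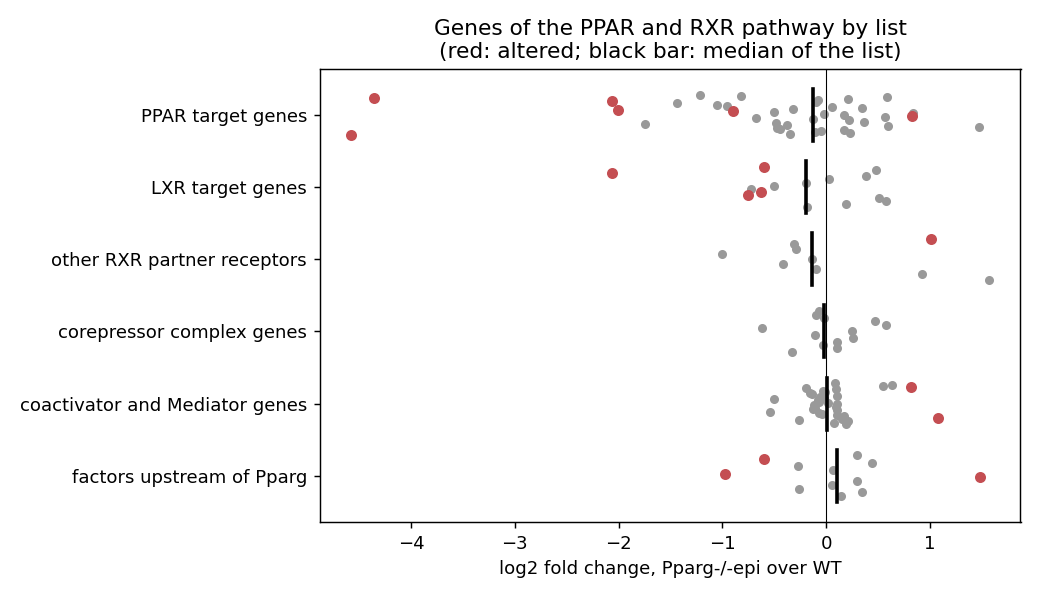
Log2 fold change, Pparg-/-epi over WT (horizontal axis), of each measured gene in 6 pathway lists, 1 point per gene, red where altered and grey where not, with the list's median as a black bar. The medians lie between -0.19 and 0.10, and the red points furthest left are Acaa1b (-4.57) and Slc27a2 (-4.36).

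The difference between genotypes was also compared between the sexes. Males minus females, the log2 fold change of Ppara differed by 0.45 (95% interval -0.10 to 1.01) and that of Ppard by -0.13 (-0.64 to 0.38). Ppara fell by 1.48 in female and by 1.02 in male mice on the log2 CPM scale. No member passed for the genotype by sex term even at an unadjusted p under 0.05, and of all genes 0 passed adjustment in the quasi-likelihood test, 741 passed unadjusted and 4 passed adjustment in the likelihood ratio test. With 2 male Pparg-/-epi mice, differences of the size of these intervals were not detectable.

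RNA integrity numbers (RIN) were 6.88 ± 1.03 (SD) in the 6 WT and 7.55 ± 1.07 (SD) in the 6 Pparg-/-epi mice. Over the 12 mice no member passed adjustment over the 9 for Pearson's r with RIN. The highest were Med1 (r = 0.72, rho = 0.67) and Rxrb (r = -0.66, rho = -0.77), with a permutation adjusted p of 0.0684 for each r and of 0.0848 and 0.0447 for rho. Ppara had an r of -0.31 and Ppard of 0.54 with RIN (permutation, adjusted p = 0.360 and 0.0943), and with RIN as a covariate both differed between genotypes at an adjusted p under 0.05. Without the 2 mice farthest from the median RIN, the r of Ppard was 0.84 (permutation, adjusted p = 0.0246). That of Ppara was -0.70 (permutation, adjusted p = 0.0492). Rxrb (-0.66), Ncor1 (-0.76), Med1 (0.69) and Nr1h3 (0.68) also passed there, each at the adjusted p of Ppara. All these r values pool the genotypes, so the difference between the groups enters them. Within WT and within Pparg-/-epi mice r was 0.41 and -0.27 for Ppara and 0.58 and 0.49 for Ppard. None of these passed (exact permutation, adjusted p of 0.304 or more).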

How the data were processed

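Reads of 12 libraries (paired ends, mRNA kit) were aligned by the authors with STAR 2.5.2b to mm10, reads of low mapping quality or several positions were removed, and the authors deposited raw counts per gene from featureCounts (Subread 1.5.1). The table holds 14533 genes, after 2800 blank rows were dropped, and each has more than 0.5 CPM in at least 6 libraries. It carries a gene length, used for RPKM. For 2 Pparg-/-epi mice the column was assigned through the mouse name in the study's sample sheet.

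Counts were scaled by TMM and compared with edgeR 4.0.16 in R 4.3.3, genotype as the only term, all 12 libraries. Log2 CPM used a prior count of 2, and ratios 0.5 added to each count. Alternatives were the likelihood ratio test used by the study, DESeq2 1.42.0, other scalings, a filter at a mean of 50 counts, covariates, breeding number as a block, female mice alone and each mouse left out. Single values per mouse were compared with exact permutation tests, and correlations used 100000 permutations. The mice are separate animals. The fit was tested on simulated counts.

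Named genes were the 9 members, up to 6 altered genes of each list by size of change, the 4 most abundant markers of a list whose sum is discussed, and the 5 genes most like Pparg. Members and lists were chosen with earlier results of these data known. Promoter sequences are RefSeq's, and all 9 members had one. Coordinates of genes are those deposited with the counts, on mm10. Figures were drawn with matplotlib.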

Additional observations from a re-analysis of the deposited data

Results flagged for a closer look

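Among 46 sets of 6 values examined (members, ratios and marker sums, by genotype), 8 had a highest value separated from the rest of its group by more than Dixon's 95% limit. Chance flags about 1 in 20 sets of independent, normally distributed values. Most of these sets are CPM without a log scale and they share mice, so that rate does not apply here. Ppard was 104 CPM in Pparg-/-epi replicate 7, and the next value was 79.8 CPM. Pparg was 14.3 CPM in WT replicate 2, and the next was 4.58 CPM. WT replicate 2 also had 2872 CPM of Langerhans and dendritic markers, against 1707 CPM in the next mouse.

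Of the marker sums, Pparg-/-epi replicate 8 had 313 CPM of adipocyte, 397 CPM of skeletal muscle and 166 CPM of melanocyte markers, where the next values were 151, 138 and 59.9 CPM. In WT mice, replicate 1 had 34762 CPM of fibroblast markers (next 10783 CPM) and replicate 5 had 10222 CPM of skeletal muscle markers (next 276 CPM). Neither the fall of Ppara nor the rise of Ppard lost its adjusted p under 0.05 when any 1 of these mice was left out.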

How the results depend on the processing

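No paired analysis of all mice was possible, because 29-222 was the only breeding number that held mice of both genotypes. Over the 24 alternatives of each member's comparison (23 for Nr1h3, which the filter at a mean of 50 counts removed), Ppara was lower in all 24 and passed an adjusted p of 0.05 in 23, with log2 fold changes of -1.49 to -1.08. Ppard was higher in all 24 and passed in 21. The cause of the changes below was not tested, beyond the smaller number of mice where mice were left out.

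In female mice alone, 651 genes were altered, and 1 member passed an adjusted p of 0.05, since Ppard (0.62) did not. The altered genes of the lists were then 3 PPAR targets, 2 LXR targets, 0 RXR partners, 0 coactivators and 0 upstream factors. Rxra turned to 0.029, the log2 ratio of Rxrb to Rxra to -0.060, and that of Ppard to Ppara was 2.10 without passing, as 3 against 4 mice and 4 ratios cannot. Against the 2 WT mice outside 29-226 (an alternative chosen after seeing the data) the genes altered were 389, 1 member passed, Ppard was 0.43, and RXR partners, coactivators and upstream factors had 0 altered. Rxrb was then 0.015, Ncor1 0.049, Med1 -0.035 and Pparg -1.18.

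With breeding number as a block (also chosen after seeing the data, and resting on 1 mouse of each genotype for the difference), 238 genes, 0 members, 3 PPAR targets, and 0 RXR partners, coactivators and upstream factors were altered, and 0 members passed an adjusted p of 0.05 (2, Ppara and Pparg, an unadjusted one). The log2 fold changes were -1.08 for Ppara, 0.31 for Ppard, 0.13 for Rxra, 0.11 for Rxrb, 0.11 for Ncor1, -0.34 for Med1, 0.20 for Nr1h2 and -1.04 for Nr1h3.

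With age as a covariate 2 members were altered, Ppard among them, and Pparg was 0.35. With RIN as a covariate 1 corepressor gene was altered, and with DESeq2 2 RXR partners were. With 2 added to each count the log2 ratio of Pparg to Ppard was -0.042.

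The Pearson r of Pparg did not pass adjustment within WT for adipocyte (0.82) and macrophage (0.77) markers, within Pparg-/-epi mice for adipocyte (0.76) and sebocyte (0.89) markers, and without the 2 farthest mice for sebocyte (0.54) and macrophage (0.65) markers, where keratinocyte markers gave 0.36. With RIN, the r of Ppara within WT was 0.41 and that of Rxra within Pparg-/-epi mice 0.47, both opposite to all mice.

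When any 1 mouse was omitted, the genes altered numbered 1116 to 2249 (the most without WT replicate 2), the members altered 1 to 2, the corepressor genes 0 to 1 and the upstream factors 1 to 3. The log2 fold change of Pparg was -0.32 to 0.86, and the log2 ratio differences -0.32 to 0.53 for Pparg to Ppard, -0.030 to 0.11 for Rxrb to Rxra, and -1.31 to -0.70 for Nr1h2 to Nr1h3, which passed adjustment without WT replicate 2. The marker sums differed by -0.17 to 0.60 (adipocyte), 1.40 to 1.87 (sebocyte, passing without WT replicate 2), -0.15 to 0.86 (fibroblast), -1.72 to 0.22 (skeletal muscle) and -0.10 to 0.16 (Langerhans and dendritic) on the log2 scale. The log2 level of Ppara over Pparg was 1.04 to 1.48, and that of Pparg over Nr1h3 -0.00043 to 0.28. Depth limits Pparg and Nr1h3 most, with as few as 5 and 8 counts in a library.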
